A study of Homo sapiens with 4 samples.

Results

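The genes described here are 10 genes of the Notch pathway, picked by symbol from the 63677 genes in each count file: the receptors NOTCH1, NOTCH2 and NOTCH3, the ligands JAG1 and JAG2, the nuclear proteins RBPJ and MAML1, and the target genes HES1, HES4 and HEY1. Each symbol matched 1 gene on the primary chromosomes. They were measured by RNA-seq in IMR90, normal human fetal lung fibroblasts, 72 h after transfection with a non-targeting control siRNA (NTC) or with siRNAs against HMGB1, a chromatin and RNA-binding protein. Each group had 2 libraries, 1 of the isolate I90-10 (replicate 1) and 1 of the isolate I90-79 (replicate 2). All cells were transfected and no library of untransfected cells was used here. The control libraries held 29869338 and 35317010 counted reads and the knockdown libraries 29861687 and 31086475. Levels are given as CPM, the reads of a gene per 1000000 reads of the library after TMM scaling.

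In the Notch pathway, a ligand on one cell binds a receptor on its neighbour, which exposes the receptor to cleavage by ADAM proteases and then by gamma-secretase. The released intracellular domain enters the nucleus, joins the DNA-binding protein RBPJ and a Mastermind coactivator such as MAML1, and turns on HES and HEY genes, which encode transcriptional repressors. Without the intracellular domain RBPJ sits in corepressor complexes. In fibroblasts the pathway is known for its part in matrix production and in the secretory programs of senescence.

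Upon HMGB1 knockdown, the mRNA of the ligand JAG1 was 3.05-fold lower and that of the coactivator MAML1 1.96-fold lower, with a decrease in both isolates. That of the target gene HEY1 was 2.04-fold higher. All 3 missed the threshold of an adjusted p below 0.01 in edgeR's quasi-likelihood test of 2 against 2 libraries, and all 3 passed it, with an absolute log2-fold change above 0.6, once the isolate entered the model as a replicate block, called the paired fit here. JAG1 and MAML1 were also called with RUVs and DESeq2 and HEY1 was not, and the log2-fold change of HEY1 ran from 0.41 to 2.03 with 1 library left out. The ligand DLL4, listed with the other pathway genes, was 3.61-fold higher and passed in the paired fit.

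HMGB1 itself was read first. In the order I90-10, I90-79, it stood at 181 and 237 CPM in the controls and at 15.96 and 18.9 CPM upon knockdown. The log2 difference of −3.59 (standard error, SE, 0.19; adjusted p = 0.0075 in edgeR) passed the threshold, so both knockdown libraries carry the labelled change. Transcripts of other genes, HMGB1 pseudogenes among them, contain 12% of the 50-base pieces of its transcripts. Without knockdown replicate 1 or 2 its adjusted p was 0.049 and 0.032, with a log2 difference of −3.47 and −3.71.

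Without a term for the isolate, 0 of the 10 Notch genes were called in either direction by edgeR, against 0.0649% of the 15398 genes tested called up and 0.136% called down. At an unadjusted p below 0.05 there were 3 (JAG1, MAML1 and HES4, all lower), and 28.3% of all genes tested are under this limit. In the paired fit 1 was upregulated (HEY1) and 2 were downregulated (JAG1 and MAML1), where 6.68% of all genes are called up and 7.84% down. With RUVs and DESeq2, the study's sequence of steps, 0 were up- and 2 downregulated (JAG1 and MAML1), where the shares over all genes are 4.94% and 5.4%. By fitted sign, 3 of the 10 were higher (NOTCH2, HES1 and HEY1) and 7 lower, and the median log2-fold change was −0.45 beside −0.0054 over all genes tested. That median of the 10 was −0.29 with RUVs and ran from −0.55 to −0.26 with 1 library left out. The control and knockdown libraries did not overlap in CPM for 7 of the 10 genes, a share of 70.0% beside 59.9% of all genes tested. They did overlap for NOTCH3, RBPJ and HEY1. Since the 10 genes were chosen with earlier results of these data known, the values set beside all genes are descriptive. These libraries are bulk samples, in which fewer cells that express a gene and less of its RNA per cell cannot be told apart.

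**Figure D1:**
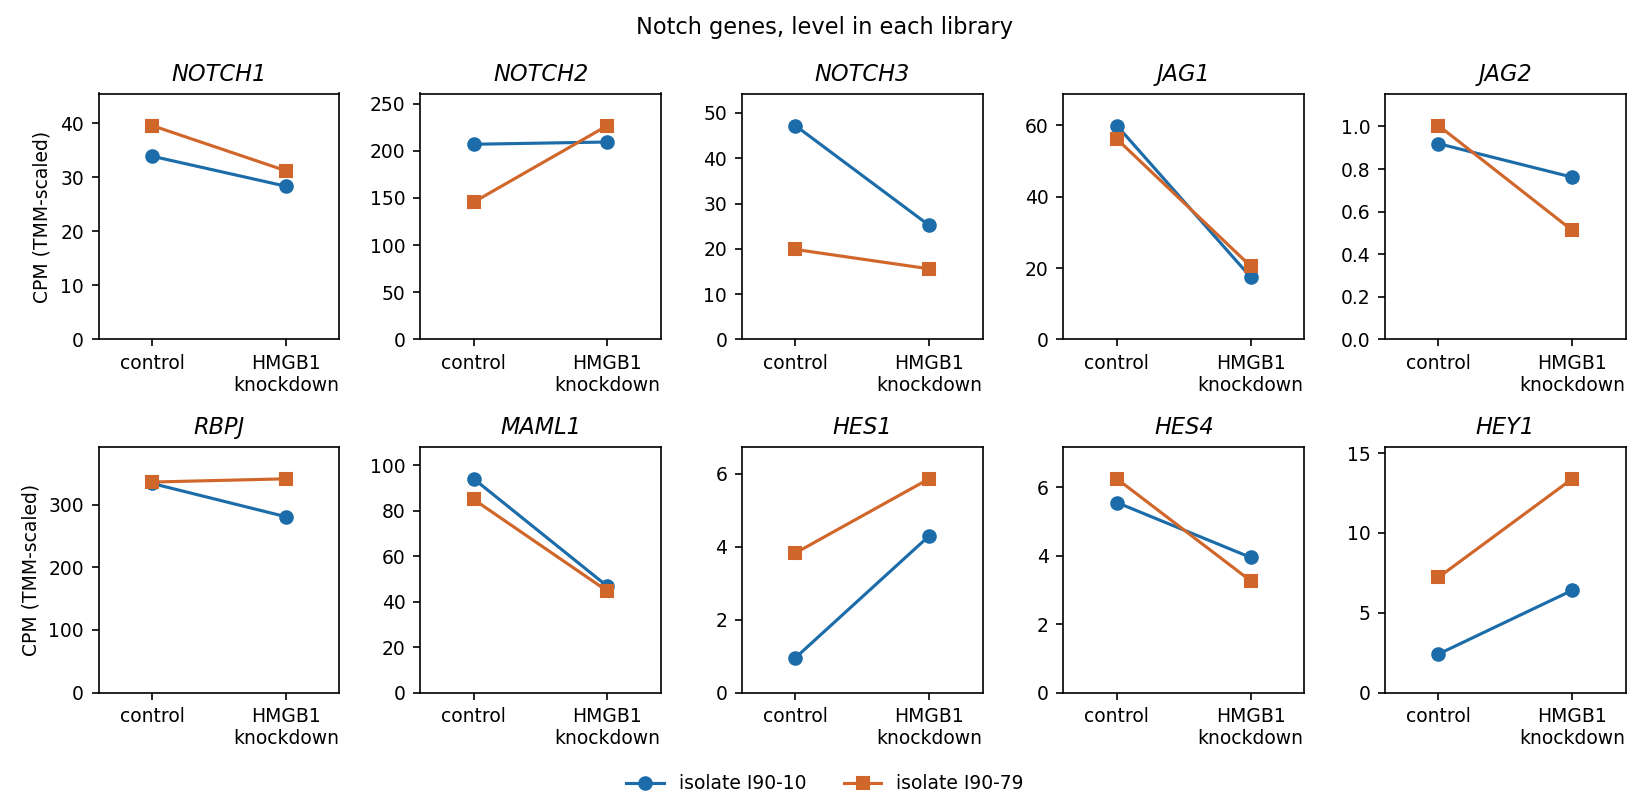
Level of each of the 10 Notch genes in CPM (TMM-scaled, linear axes from 0) in the control and the HMGB1 knockdown library of each isolate, with a line joining the 2 libraries of an isolate. Both lines fall steeply for JAG1 (from 59.9 and 56.1 to 17.5 and 20.5 CPM) and for MAML1, both go up for HES1 and HEY1, and those of RBPJ go apart.

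**Figure D2:**
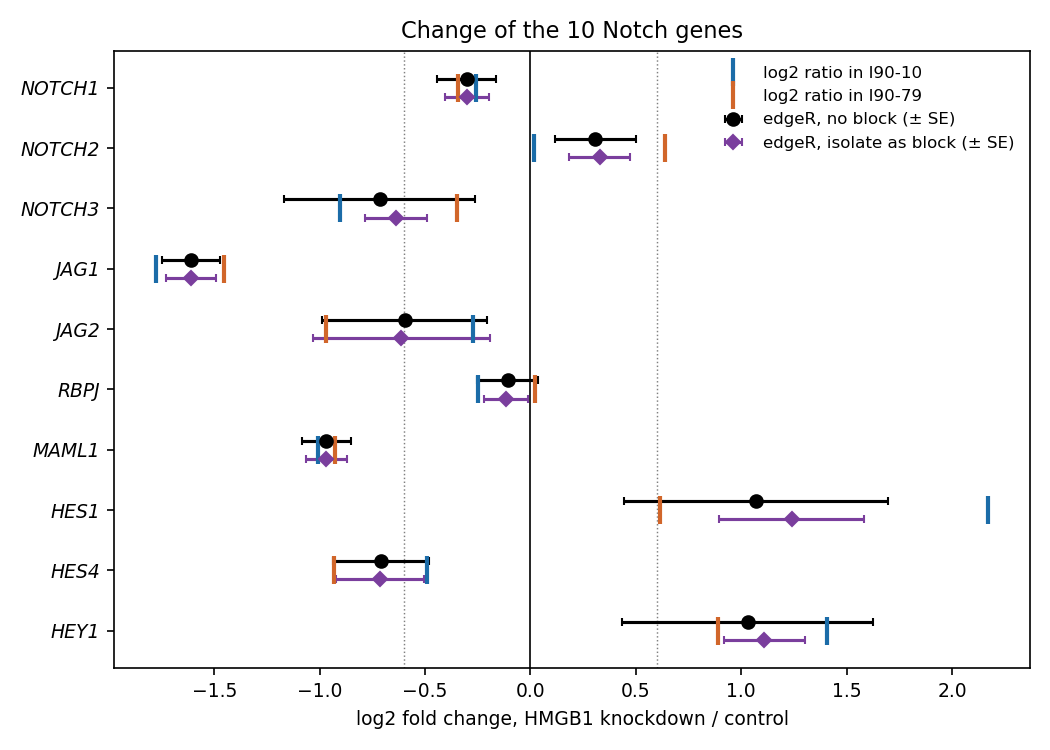
Change of the 10 Notch genes upon HMGB1 knockdown on the log2 scale, as fitted by edgeR without the isolate (black circles) and with it as a block (purple diamonds), with standard errors; coloured ticks are the ratios within I90-10 and I90-79, and dotted lines mark the threshold of 0.6. JAG1 and MAML1 have narrow error bars below −0.6 in both fits, and the bars of HEY1 and NOTCH3 shrink when the isolate enters the fit.

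Levels of different genes are compared here per kilobase of exon, with every exonic base of the gene model counted. That length can exceed the length of the transcripts present, so the order depends on the gene models. For MAML1 it was 10690 bases, while its GENCODE transcripts hold 5916 different 50-base pieces. On this scale RBPJ was by far the most abundant of the Notch genes in the control libraries, at 37.04 ± 0.176 CPM per kb (SD, n = 2). It was followed by NOTCH2 (10.5 ± 2.58) and JAG1 (9.22 ± 0.424), whose control values overlap. MAML1 came next at 8.38 ± 0.601, and its control values overlap those of NOTCH2, which was the higher within each isolate. HES4 followed at 5.27 ± 0.438, NOTCH3 at 3.81 ± 2.20 and NOTCH1 at 3.72 ± 0.405. The values of HES4 and NOTCH3 overlap, and so do those of NOTCH3 and NOTCH1. The control values of HEY1 (1.49 ± 1.05) and HES1 (1.16 ± 0.985) overlap, and HEY1 was the higher within each isolate. JAG2 was lowest at 0.150 ± 0.00939 CPM per kb. In the knockdown libraries RBPJ (34.4 ± 4.73) and NOTCH2 (12.98 ± 0.733) still led, and MAML1 followed at 4.28 ± 0.140. JAG1, at 3.02 ± 0.342, stood among HES4, HEY1 and NOTCH1, with values that overlap from each to the next. The values of JAG1 also overlap those of HES1 (2.46 ± 0.537) and NOTCH3 (2.32 ± 0.773), and JAG1 exceeded HES1 within each isolate.

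Of the receptors, NOTCH2 was the most abundant transcript in these fibroblasts. On the scale of CPM per kb it made up 58.2% and 57.8% of the summed level of NOTCH1 to NOTCH4 in the controls, and 68.3% and 73.0% upon knockdown. NOTCH2 (ENSG00000134250, hg19 chr1:120454176-120612240, minus strand) was measured at 207 and 146 CPM in the controls and at 209 and 227 CPM in the knockdown. The control of I90-79 was the lowest of the 4 libraries, and the other 3 lay close together. The log2-fold change of 0.31 (95% interval −0.18 to 0.79, adjusted p = 0.35 in edgeR) did not pass the threshold, nor did that of the paired fit (0.33, adjusted p = 0.12). Without control replicate 1 the log2-fold change of NOTCH2 was 0.58, and without control replicate 2 it was 0.08. Other genes, among them its human-specific partial copies NOTCH2NLA, NOTCH2NLB, NOTCH2NLC and NOTCH2NLR, share 7.39% of the 50-base pieces of NOTCH2 transcripts. How this sharing affected the counted reads was not tested.

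NOTCH1 (ENSG00000148400, chr9:139388896-139440314, minus strand), the receptor best known from leukaemia and development, was at 33.9 and 39.5 CPM in the controls and at 28.3 and 31.2 CPM upon knockdown. Both knockdown values lay below both controls, by 0.26 and 0.34 on the log2 scale within the isolates. The fitted difference of −0.30 (95% interval −0.65 to 0.05) had an adjusted p of 0.22 in edgeR and 0.058 in the paired fit, past the threshold in neither. NOTCH3 (ENSG00000074181, chr19:15270444-15311792, minus strand), the receptor of mural cells and of activated fibroblasts, differed more between the isolates than between the groups. It stood at 47.2 CPM in the control of I90-10 and 19.9 CPM in that of I90-79, and at 25.2 and 15.6 CPM in the knockdown libraries. The groups overlapped, but NOTCH3 was lower upon knockdown within each isolate, by 0.91 and 0.35 on the log2 scale. The fitted log2 difference was −0.72 (SE 0.45, adjusted p = 0.35) in edgeR and −0.64 (SE 0.15, adjusted p = 0.013) in the paired fit, and it was 0.04 without control replicate 1. NOTCH3 was called in the DESeq2 fit with the block (−0.63, adjusted p = 0.0094) and in edgeR without a filter on low counts (−0.71, adjusted p = 0.0017). NOTCH4, the receptor of endothelial cells, was close to silent, at 0.340 and 0.678 CPM in the controls and 0.519 and 0.544 CPM upon knockdown. The summed receptor level was 21.1 and 14.998 CPM per kb in the controls and 18.2 and 18.5 CPM per kb in the knockdown.

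Of the ligands, JAG1 (ENSG00000101384, chr20:10618332-10654694, minus strand), a ligand of the Jagged type, showed the clearest change of the 10 genes. Its control values were 59.9 and 56.1 CPM, and its values upon knockdown were 17.5 and 20.5 CPM. The 2 controls lay close together, and both knockdown values lay far below them. Within the isolates the log2 ratio was −1.78 in I90-10 and −1.45 in I90-79. The log2-fold change was −1.61 (SE 0.14, 95% interval −1.95 to −1.27), with an adjusted p of 0.0104 in edgeR, just outside the threshold of 0.01, and of 8.7e-05 in the paired fit. It was called under 8 of the 13 alternative settings, and with each library left out in turn the log2-fold change stayed between −1.73 and −1.50. In the gene models of the files, 5.8% of its exonic bases overlap 2 other genes (ENSG00000270408 on the same strand and ENSG00000270792 on the opposite one), and no 50-base piece of its GENCODE transcripts occurs in those of another gene. JAG2 (ENSG00000184916, chr14:105607318-105635161, minus strand), the other Jagged ligand, rested on 16 to 37 reads per library. It was at 0.919 and 1.004 CPM in the controls and at 0.762 and 0.512 CPM upon knockdown. Its log2-fold change was −0.60 (adjusted p = 0.37 in edgeR), with a 95% interval of −1.58 to 0.39 that includes 0. Of its transcripts' 50-base pieces 6.53% are shared with the unnamed gene ENSG00000257622, which also overlaps its exons.

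The 3 genes whose pattern over the 4 libraries was most like that of JAG1, by Euclidean distance of mean-centred log2 CPM among 13105 tested genes, were ENSG00000155640 (distance 0.0112), MSL3 (0.0583), a subunit of a histone acetyltransferase complex, and MOB1A (0.0933), a Hippo pathway adaptor. In all, 28 genes lay within a distance of 0.2.

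The Delta-type ligand DLL4, best known from sprouting vessels, moved against JAG1. DLL4 was at 5.69 and 14.8 CPM in the controls and at 32.6 and 41.8 CPM in the knockdown libraries, which lay above both controls. Within the isolates it was higher by 2.52 and 1.49 on the log2 scale. Its fitted log2-fold change was 1.85 (SE 0.45, adjusted p = 0.069) in edgeR, not past the threshold, and 1.96 (SE 0.22, adjusted p = 4.7e-04) in the paired fit, which called it upregulated. Per kilobase, JAG1 held 82.6% and 67.8% of the summed level of JAG1, JAG2, DLL1, DLL3 and DLL4 in the controls and 26.2% and 25.0% in the knockdown, while DLL4 went from 10.4% and 23.9% to 65.2% and 67.9%. The sum itself was 11.5 and 13.2 CPM per kb in the controls and 10.6 and 13.04 CPM per kb in the knockdown, so the most abundant ligand transcript differed between the groups in both isolates while the values of the sum overlapped. DLL1 and DLL3 stayed at or below 0.663 CPM per kb in every library.

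**Figure D3:**
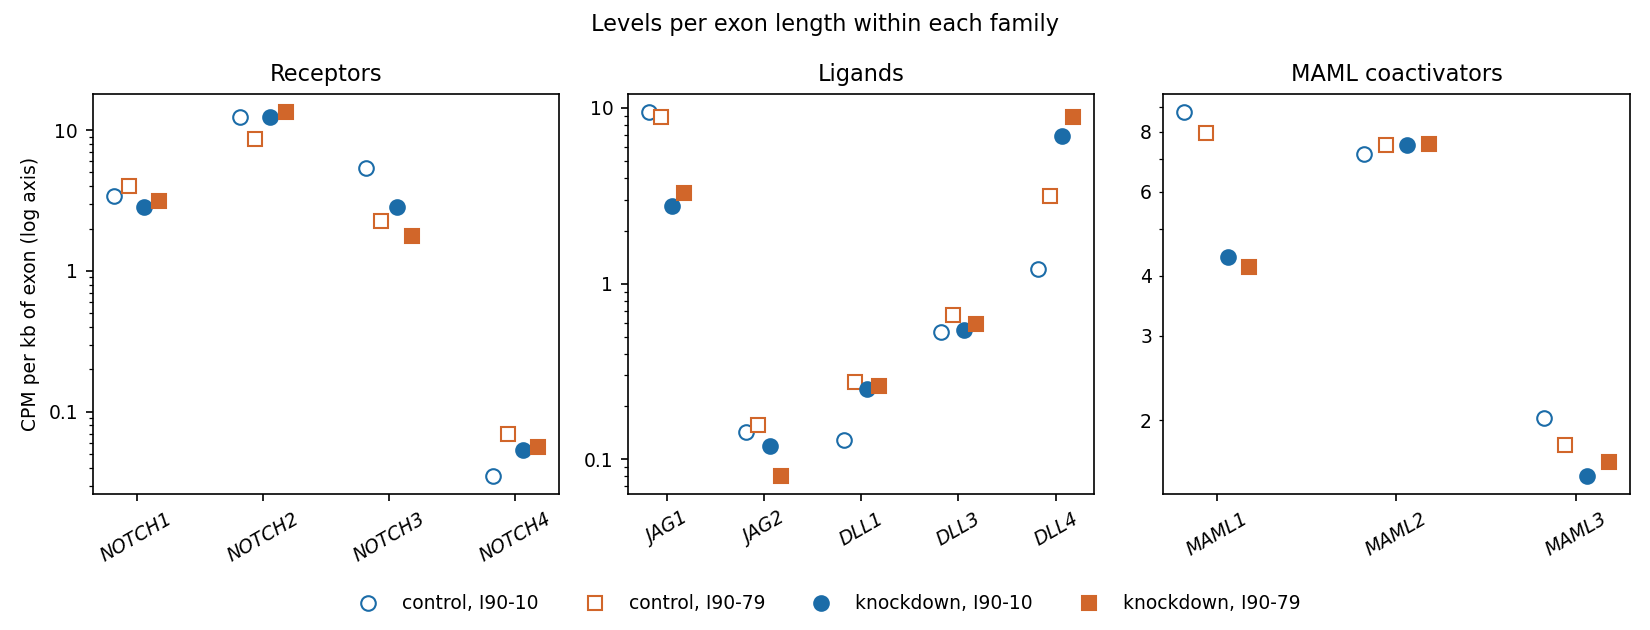
Levels of the Notch receptors, of the ligands and of the Mastermind coactivators in CPM per kilobase of exon (log axes) in each library, with open symbols for control, filled symbols for HMGB1 knockdown, circles for I90-10 and squares for I90-79. JAG1 lies above DLL4 in both control libraries (9.52 and 8.92 against 1.20 and 3.14 CPM per kb) and below it in both knockdown libraries (2.78 and 3.26 against 6.91 and 8.85), and MAML1 is lower upon knockdown while MAML2 stays at 7.18 to 7.53.

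Since DLL4 and NOTCH4 mark endothelial cells and NOTCH3 mural cells, markers of other cell types were read in the same libraries. The 10 fibroblast markers were all tested and summed to 45839 and 23996 CPM in the controls and 39337 and 25086 CPM in the knockdown, led by COL1A1 at 5665 to 12559 CPM. In the paired fit LUM (log2-fold change 0.79 without the isolate) was called up, and PDGFRB (−0.73), THY1 (−0.95) and FN1 (−0.81) were called down. With RUVs and DESeq2, COL3A1, DCN and LUM were called up and 0 down, with PDGFRB at −0.23, THY1 at −0.37 and FN1 at −0.26. Of 8 endothelial markers 7 had a row and 4 were tested; they summed to 151, 150, 136 and 136 CPM, nearly all from TEK, and the defining genes CDH5, ERG and EMCN had 0 reads in all 4 libraries. Of the 4, VWF was called up in the paired fit, from 1.36 and 0.923 to 4.16 and 2.59 CPM, while TEK (−0.17), TIE1 (−0.54) and KDR (0.43) were not called. The 6 smooth muscle and pericyte markers summed to 191, 185, 196 and 173 CPM, and 0 were called. The 8 epithelial markers summed to 59.4, 68.1, 78.9 and 98.8 CPM, mostly KRT18 (0.74, called up in the paired fit but not with RUVs), with KRT5 and KRT14 at 0. KRT8 (−0.60), CLDN4 (−1.47) and EPCAM (0.08) were not called. The 6 leukocyte markers summed to at most 0.346 CPM, with CD3E and LYZ at 0. The part of these marker differences in the Notch genes was not tested.

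In the nuclear complex, MAML1 (ENSG00000161021, chr5:179159851-179223512, plus strand), the Mastermind coactivator that bridges RBPJ to histone acetyltransferases, was at 94.1 and 85.0 CPM in the controls and at 46.8 and 44.7 CPM upon knockdown. The values within each group differed by little, and the isolates moved by −1.01 and −0.93. The log2-fold change of −0.97 (SE 0.12, 95% interval −1.26 to −0.68) had an adjusted p of 0.017 in edgeR and of 3.1e-04 in the paired fit, where MAML1 was called. Its paralog MAML2 was at 51.0, 53.4, 53.3 and 53.5 CPM in the same libraries (log2-fold change 0.03, SE 0.11), and the log2-fold change of MAML3 was −0.26 (SE 0.16, adjusted p = 0.35). Per kilobase, MAML1 made up 48.9% and 46.1% of the 3 Mastermind genes in the controls and 32.7% and 31.3% in the knockdown. The sum of the 3 was 18.001 and 17.2 against 13.4 and 13.3 CPM per kb. These shares and sums also depend on the exon lengths of the gene models. The exons of MAML1 overlap those of LTC4S on the same strand over 9.88% of their bases. RBPJ (ENSG00000168214, chr4:26165077-26436541, plus strand), the DNA-binding protein of the complex, was at 334 and 336 CPM in the controls and at 281 and 341 CPM in the knockdown. The control of I90-10 and its knockdown differed by −0.25 on the log2 scale, whereas in I90-79 the difference was 0.02. The log2-fold change of −0.11 (95% interval −0.47 to 0.26, adjusted p = 0.67 in edgeR) had an interval that does not reach the −0.97 of MAML1. Other genes, RBPJ pseudogenes among them, share 0.533% of its 50-base pieces.

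The transcripts of JAG1 and MAML1 have in common a 6-base word in the 3′ UTR, GCAGTT. The word was chosen from these same counts, in which transcripts that hold it tend to be lower upon knockdown, so what follows is a description and no test. A word of this length is the size of site with which the seed of a small interfering RNA or a microRNA can pair. In the canonical GENCODE transcripts on GRCh37, the 2 copies in JAG1, on the minus strand of chr20:10619600-10619629 and chr20:10619204-10619233, and the 3 copies in MAML1, on the plus strand of chr5:179202044-179202073, chr5:179202706-179202735 and chr5:179202757-179202786, are shown with 12 bases on each side and the word in capitals.
JAG1 copy 1: actttgatgtcaGCAGTTgctggtaaaatg
JAG1 copy 2: ggactgactgagGCAGTTtgaggattagtt
MAML1 copy 1: cccctcaggccaGCAGTTgaggtccatcgg
MAML1 copy 2: tccccaccttctGCAGTTttctctgaacat
MAML1 copy 3: cgtggtcactgtGCAGTTgtgcacagatgt

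Outside the word the 5 stretches differ. The word occurs in 36.2% of the 3′ UTRs of 12337 genes tested, counting those of 100 bases or more. Their median log2-fold change was −0.16 with the word and 0.07 without it, and their median 3′ UTR length 2839 and 886 bases. Among the genes called in the paired fit, 71.2% of the downregulated and 30.4% of the upregulated ones hold it, with median 3′ UTR lengths of 1997 and 1706 bases. Of the 10 Notch genes 6 hold it, with 2 copies each in HEY1 and RBPJ and 1 each in JAG2 and NOTCH3, and NOTCH1, NOTCH2, HES1 and HES4 hold 0. MAML2 and MAML3 hold 0, and so does DLL4. HMGB1 holds 3. HEY1, with 2 copies, was upregulated in the paired fit, and RBPJ, with 2, was not called. The siRNA sequences were not used here, and whether the word pairs with one of them was not tested.

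The 3 target genes differed in sign, and all 3 were expressed at low levels, at no more than 13.4 CPM in any library. HES1 (ENSG00000114315, chr3:193853934-193856521, plus strand), the classical effector of Notch that represses differentiation genes, was at 0.953 CPM in the control of I90-10, from 28 reads, and at 3.83 CPM in that of I90-79, and at 4.29 and 5.86 CPM in the knockdown libraries. Both knockdown values exceeded both controls, the control of I90-10 was the lowest, and the log2 ratio was 2.17 in I90-10 and 0.61 in I90-79. The fitted value was 1.07 (SE 0.62, adjusted p = 0.32) in edgeR and 1.24 (SE 0.35, adjusted p = 0.028) in the paired fit, and past the threshold in neither, while edgeR without a filter on low counts called it (adjusted p = 0.0044). Without control replicate 1 it was 0.41 and without control replicate 2 it was 2.41.

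HEY1 (ENSG00000164683, chr8:80676245-80680098, minus strand), a repressor of the HES-related family, was at 2.42 and 7.22 CPM in the controls and at 6.41 and 13.4 CPM upon knockdown. The groups overlapped because I90-79 exceeded I90-10 in both, while each isolate was higher upon knockdown, by 1.41 and 0.89 on the log2 scale. The fitted log2 difference was 1.03 (SE 0.59, adjusted p = 0.31) in edgeR and 1.11 (SE 0.19, adjusted p = 0.0035) in the paired fit, in which HEY1 was upregulated. Without control replicate 1 it was 0.45, without control replicate 2 it was 2.03 and without knockdown replicate 2 it was 0.41, and with RUVs it was 0.44 (adjusted p = 0.38 in DESeq2). HEY1 was called in the 2 fits with the block and in the one without a filter on low counts. HES4 (ENSG00000188290, chr1:934342-935552, minus strand), a HES-family repressor found in primates but missing from the mouse, had the opposite sign. It was at 5.55 and 6.24 CPM in the controls and at 3.95 and 3.27 CPM in the knockdown, without overlap. The log2-fold change of −0.71 (SE 0.23, 95% interval −1.28 to −0.14) had an unadjusted p of 0.024 and an adjusted p of 0.12 in edgeR, and an adjusted p of 0.032 in the paired fit, so that it passed the threshold in neither.

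Within the measured HES and HEY genes, per kilobase, HES4 made up 59.6% and 45.4% of the sum in the controls and 34.2% and 23.3% in the knockdown. The share of HES1 was 5.55% and 15.1% against 20.1% and 22.6%, and that of HEY1 was 8.97% and 18.1% against 19.2% and 33.0%. HES6, an antagonist of HES1, was level at 1.96, 2.02, 1.99 and 1.996 CPM per kb. The sum of the family was 8.33 and 12.3 CPM per kb in the controls and 10.3 and 12.6 CPM per kb in the knockdown. The knockdown value was the higher in each isolate, by more in I90-10, and the groups overlapped.

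The promoters of the target genes are shown because RBPJ reads DNA through the core TGGGAA. RefSeq windows of 300 bases on GRCh38.p14, from 250 before to 50 after a gene's start, were found for 9 of the 10 Notch genes, all but HEY1. The letters TGGGAA, or TTCCCA on the other strand, occur in 3 of them. In the HES1 window, on the plus strand of chr3:194135898-194136197, they occur 2 times, starting 84 and 70 bases before the start of the gene, side by side and in the same orientation. In the HES4 window, on the minus strand of chr1:1000048-1000347, they occur 1 time, 76 bases before the start, and in RBPJ 1 of several alternative windows holds 2. Of 35116 promoter windows, 24% hold the letters at least once and 3.8% at least 2 times. The core is in capitals.
HES1 promoter: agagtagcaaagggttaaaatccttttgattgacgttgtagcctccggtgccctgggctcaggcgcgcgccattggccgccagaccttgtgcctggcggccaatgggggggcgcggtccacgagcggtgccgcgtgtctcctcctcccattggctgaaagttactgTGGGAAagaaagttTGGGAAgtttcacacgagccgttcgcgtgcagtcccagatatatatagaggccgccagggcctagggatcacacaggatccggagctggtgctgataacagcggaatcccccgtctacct
HES4 promoter: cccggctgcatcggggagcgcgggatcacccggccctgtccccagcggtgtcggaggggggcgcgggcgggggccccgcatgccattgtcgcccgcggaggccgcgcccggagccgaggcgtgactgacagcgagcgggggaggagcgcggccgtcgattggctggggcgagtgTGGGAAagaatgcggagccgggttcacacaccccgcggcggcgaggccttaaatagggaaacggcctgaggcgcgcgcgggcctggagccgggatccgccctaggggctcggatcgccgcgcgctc

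A match of these letters is a description and not a binding site. HES1 and HES4, both with the core at nearly the same distance from the start, differed in sign upon knockdown, at 1.07 and −0.71 on the log2 scale. The windows of NOTCH1, NOTCH2, NOTCH3, JAG1, JAG2, MAML1 and DLL4 do not hold these letters.

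The rest of the pathway was read from 7 lists, also chosen with earlier results of these data known. They held 82 genes, of which 74 passed the filter on low counts. By fitted sign 38 were higher and 36 lower, with a median log2-fold change of 0.0063. By edgeR without the isolate 0 were called, 26 had an unadjusted p below 0.05 (13 in each direction), which is 35.1% beside 28.3% of all genes tested, and the paired fit called 10 up and 7 down, against 6.68% and 7.84% of all genes. With RUVs and DESeq2, 6 were up- and 8 downregulated, against 4.94% and 5.4% of all genes. The 2 sets of calls differed in 5 genes: DNER, EOGT, KAT2A and TLE3 were upregulated in the paired fit only, and SPEN was downregulated with RUVs only. The genes that follow as up- or downregulated were called in the paired fit. Unless another fit is named, the log2-fold changes and their SE are those of the fit without the isolate.

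Of the other 7 receptors and ligands, 2 were upregulated and 0 downregulated. Beside DLL4, DNER, a non-canonical ligand of neurons, went from 0.0681 and 0.760 CPM to 1.90 and 3.30 CPM. Its log2-fold change was 2.58 (SE 0.85, adjusted p = 0.12) in edgeR and 2.76 (SE 0.50, adjusted p = 0.0044) in the paired fit. The ligand-like DLK2 (−1.03) and DLK1 (0.41) were not called. Of 9 cleavage genes 2 were upregulated, both encoding the gamma-secretase subunit APH1. APH1A went from 67.6 and 68.0 CPM to 121 and 109 CPM (0.76, SE 0.11) and APH1B from 13.2 and 14.7 CPM to 34.6 and 30.2 CPM (1.22, SE 0.15). Nicastrin, the substrate-binding subunit encoded by NCSTN, stood at −0.49 (SE 0.11) and FURIN, which cuts the receptor during its transport, at 0.49 (SE 0.12), both under the fold threshold.

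Of the 9 tested glycosylation genes 1 was up- and 2 were downregulated. GXYLT1 and GXYLT2 encode the enzymes that add the first xylose to O-glucose on the EGF repeats of Notch, and both were lower. GXYLT1 went from 27.3 and 32.5 CPM to 11.98 and 16.2 CPM (−1.09, SE 0.20), and GXYLT2 from 32.2 and 21.8 CPM to 9.94 and 5.22 CPM (−1.84, SE 0.36). EOGT, which adds O-GlcNAc to the same repeats, was upregulated from 33.2 and 37.7 CPM to 53.7 and 60.7 CPM (0.69, SE 0.13). POFUT1 (−0.37) and B4GALT1 (−0.27) were not called.

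Ubiquitination and trafficking had 18 tested genes, 0 up- and 2 downregulated. The ubiquitin ligase NEDD4, which can act on Notch receptors, went from 126 and 118 CPM to 25.8 and 33.0 CPM (−2.05, SE 0.16, adjusted p = 0.0104 in edgeR and 5.2e-05 in the paired fit). This was the lowest log2-fold change among the 74 genes. NUMBL, a relative of the Notch inhibitor NUMB, went from 55.2 and 38.0 CPM to 24.9 and 16.6 CPM (−1.17, SE 0.27). DTX3L (0.48) and MIB1 (−0.50), the ligase that primes ligands for signalling, were not called.

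Among 9 coactivators, the acetyltransferase gene KAT2A was upregulated (27.7 and 33.7 CPM to 48.4 and 49.3 CPM, log2-fold change 0.67, SE 0.14) and its paralog KAT2B downregulated (8.54 and 6.65 CPM to 3.05 and 2.40 CPM, −1.48, SE 0.26). CCNC (0.38) and CDK8 (−0.27), the cyclin and kinase that mark the Notch intracellular domain for decay, were not called. Of 17 RBPJ corepressor genes 3 were up- and 2 downregulated. Upregulated were RITA1 (0.98, SE 0.14), which exports RBPJ from the nucleus, SAP30 (1.09, SE 0.16), of the SIN3 complex, and TLE3 (0.77, SE 0.23), a Groucho-type corepressor. Downregulated were CTBP2 (−0.92, SE 0.11) and L3MBTL3 (−0.99, SE 0.17), which recruits a histone demethylase to RBPJ. NCOR1 (−0.45) and SPEN (−0.45) were not called in the paired fit, while SPEN was downregulated with RUVs and DESeq2 (−0.61, adjusted p = 0.0014). Of 11 other HES, HEY and direct target genes 5 were tested and 1 was upregulated, BHLHE40 (52.8 and 42.9 CPM to 73.5 and 76.3 CPM, 0.65, SE 0.14). NRARP, a feedback target of Notch in many tissues, was at 0.443 and 0.190 CPM in the controls and 0.416 and 0.256 CPM upon knockdown, and HES7 (0.79, SE 0.58) and BHLHE41 (−0.55, SE 0.41) were not called.

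**Figure D4:**
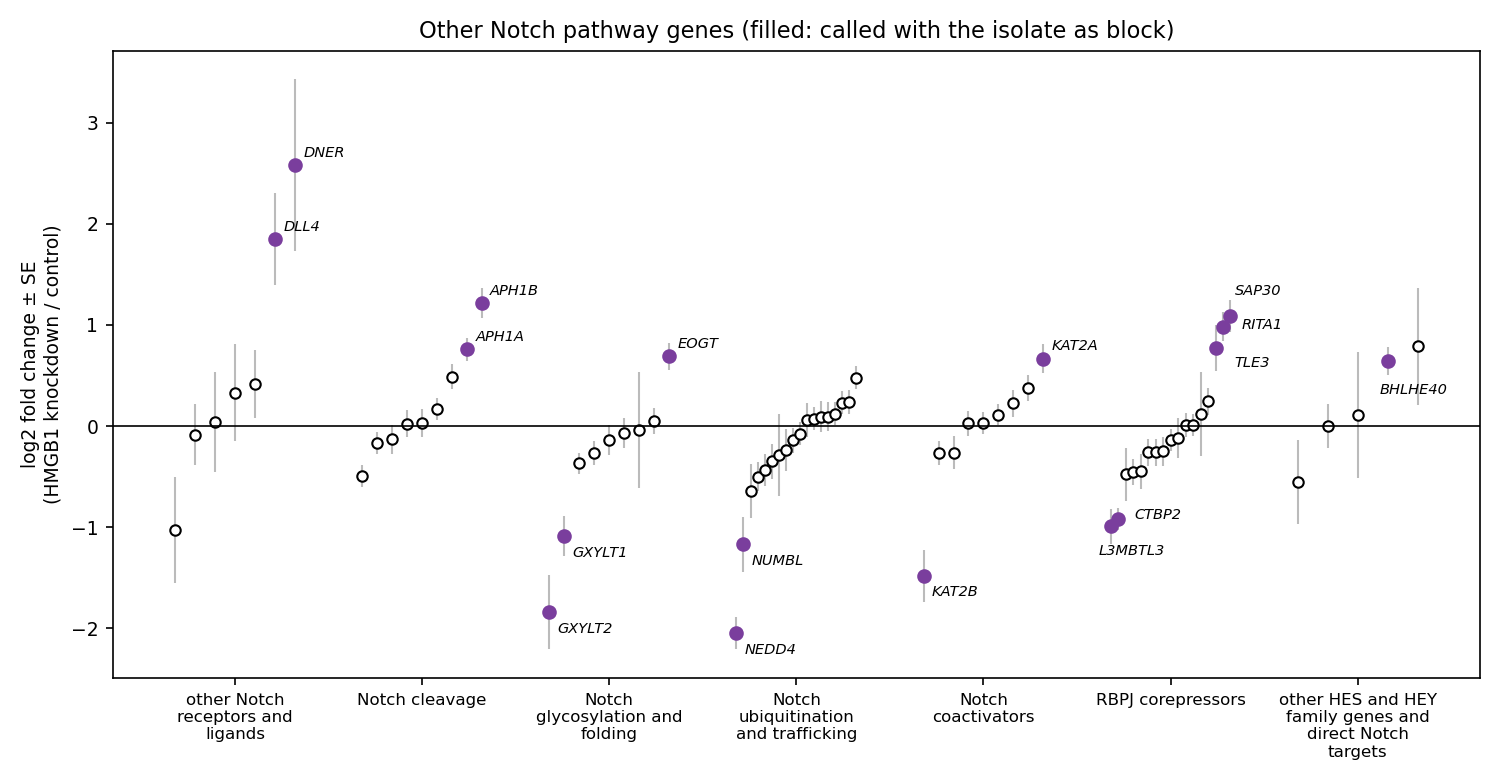
Log2-fold change upon HMGB1 knockdown, with standard error, of the 74 other pathway genes tested, by list and in order of change within each list. Values and standard errors are from the fit without the isolate, and filled symbols mark genes called in the paired fit of edgeR. NEDD4 and GXYLT2 have the lowest values (−2.05 and −1.84), DNER and DLL4 the highest (2.58 and 1.85), and most of the other genes lie within 0.6 of 0.

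The word GCAGTT is in the 3′ UTR of all 7 of these downregulated genes and of 2 of the 10 upregulated ones, APH1B and TLE3, and of 25 of the 56 that were tested and not called with a 3′ UTR of 100 bases or more. Over all genes the shares are 71.2% of the downregulated and 30.4% of the upregulated, and since the word was chosen from these counts, nothing about the pathway is read from them. GXYLT1 holds 5 copies, CTBP2 3, NEDD4, KAT2B and L3MBTL3 2 each, and GXYLT2 and NUMBL 1 each. The 2 copies of NEDD4, on the minus strand of GRCh37 chr15:56121727-56121756 and chr15:56121415-56121444, are shown in the same way as those of JAG1.
NEDD4 copy 1: agtatctgccagGCAGTTttttcttaaact
NEDD4 copy 2: ttttgttaatatGCAGTTttactaaacaga

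The median 3′ UTR lengths of the 7 downregulated and the 10 upregulated genes were 1879 and 975 bases, and the part of length in these shares was not tested.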

How the data were processed

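RNA of control and HMGB1 knockdown IMR90 was poly(A)-selected, made into TruSeq libraries and sequenced paired-end. The authors mapped reads to hg19 with STAR, counted unique reads on genes with featureCounts and deposited raw counts per gene, 1 file per library; versions and the strand setting are not given in the sources used here. All values were checked to be whole numbers. Counts of all 4 libraries were tested with edgeR 4.0.16 (limma 3.58.1, R 4.3.3): filterByExpr (15398 genes), TMM, the quasi-likelihood test and Benjamini-Hochberg adjustment over all genes tested. Calls needed an adjusted p below 0.01 together with an absolute log2-fold change above 0.6. Isolates recur in both groups, so replicate numbers pair the libraries; the replicate 1 minus replicate 2 difference correlated between control and knockdown (r = 0.56 across 15398 genes). With 2 against 2 libraries an exact two-sided permutation p cannot fall below 0.333, and p-values measure the spread between these libraries only.

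Levels of different genes were compared as CPM per kilobase of the exon length in the files. The members, the lists and the 6-base word were chosen with earlier results of these data known. Named were all 10 Notch genes, HMGB1, and, of each list, the genes called with or without the isolate and the 2 others with the smallest p; genes named only for their levels were added afterwards. The nearest patterns used genes of at least 1 CPM and a pseudocount of 0.5 CPM. Shared 50-base pieces and 3′ UTRs come from GENCODE lifted to GRCh37, promoters from RefSeq. Alternatives were DESeq2 1.42.0, RUVs with 1 factor and DESeq2, other size factors, other low-count filters, the replicate block, an adjusted p below 0.05 and leaving out each library. The script was tested on simulated data.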

Additional observations from a re-analysis of the deposited data

Results flagged for a closer look

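RBPJ is the gene of the 10 whose log2 ratio of knockdown to control had opposite signs in the isolates. Over all genes tested, 78.3% had the same sign in both. The ratio of RBPJ was −0.25 in I90-10 and 0.022, close to no change, in I90-79. With 1 library per isolate and group this difference could not be tested. With 2 libraries per group, no library could be examined as an outlier within its group.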

How the results depend on the processing

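Main counts of Notch genes called, 0 up and 0 down, depended on the pairing: with the isolate as a replicate block, 1 was up- and 2 were downregulated, and with the block in DESeq2 1 and 3 (6.28% and 7.09% of all genes). Downregulated were 2 with DESeq2 (5.31% of all genes), 2 with RUVs and 2 at an adjusted p below 0.05 (4.34%), and upregulated 0 under each of these. Without a filter on low counts 2 were up- and 3 downregulated (4.08% and 4.65%). Other size factors and a minimum of 10 counts left both counts at 0. Leaving out 1 library gave 0 to 2 downregulated genes: 1 without control replicate 1 (1.12% of all genes), 2 without control replicate 2 (2.1%) and 0 without either knockdown library, where 0 of all genes were called. A lone library was assumed to vary like the other group. With 1 library left out, the log2-fold change of NOTCH3 ran from −1.21 to 0.036 (adjusted p = 0.97 without control replicate 1) and that of RBPJ from −0.25 to 0.025 (adjusted p = 0.96 without knockdown replicate 1), and the cause was not tested. The other 8 Notch genes kept their sign under all 13 alternatives. Their adjusted p lay between 1.9e-18 and 0.063 for JAG1, 1.8e-09 and 0.094 for MAML1 and 7.5e-04 and 0.78 for HEY1. The median of the 10 was −0.29 with RUVs and −0.55 to −0.26 with 1 library left out. JAG2 rested on 16 to 37 reads per library, HES1 on 28 to 183, HES4 on 102 to 230 and HEY1 on 71 to 418.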
